A study of Homo sapiens with 24 samples.

Results

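The genes described here lie on human chromosomes 6, 7, 18 and 21, whose transcripts as a group were higher in a Klotho-transfected kidney line than in its parental line. They were chosen by position and level: every gene that the files place on these chromosomes with a mean of at least 2 CPM (counts scaled to a common library size) over the 24 libraries. That gave 1751 of the 13592 genes at this level, with 717 on chromosome 6, 689 on chromosome 7, 214 on chromosome 18 and 131 on chromosome 21. Another 2830 of the 4581 genes that the files list on these chromosomes fell under the level filter and were left out. The genes were grouped by start position into 48 windows of 10 Mb, with 18 on chromosome 6, 16 on chromosome 7, 9 on chromosome 18 and 5 on chromosome 21. The chromosomes themselves were picked because Klotho-line values exceeded parental values in these same libraries, so every such difference below is a description and carries no test. At the edge of the filter, RPS2P32 (2.01 CPM), AC010973.2 (2.03 CPM) and WNT16 (2.04 CPM) lay just inside it. CCDC146 (1.997 CPM), AL353625.1 (1.99 CPM) and HMGCLL1 (1.98 CPM) lay just outside it.

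The cells were HEK293, a transformed human embryonic kidney line, untransfected (WT) or stably transfected with Klotho (Kl). Each line received recombinant human FGF23 in a short treatment (1 h, 0.5 nM) and a long one (24 h, 10 nM), with untreated controls for each time, and each of the 8 groups had 3 libraries. Dose and time changed together, so they cannot be told apart. The vector promoter that drives Klotho, and whether Kl is 1 clone or a pool, are not given in the sources used here, and the labels do not say whether the 3 libraries of a group came from separate cultures, so the p-values below measure the spread between these libraries, which may be technical.

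Klotho is the membrane co-receptor through which FGF receptors bind FGF23, the bone hormone that lowers phosphate reabsorption in the kidney. HEK293 is an aneuploid line with an abnormal and variable number of chromosomes, and its sublines are known to differ in chromosome content. In cultured cells the transcript level of most genes tends to follow the number of gene copies, which moves many neighbouring genes by a similar small fold, whereas regulation by a transcription factor moves scattered genes by unequal folds. DNA was not measured in these data, and a part of copy number in the differences was not tested. In bulk RNA, more RNA per cell and more cells of a type cannot be told apart.

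KL, the transfected gene, had 0 to 14 counts in every WT library and 992 to 2060 CPM in every Kl library. Library depth ran from 15849564 to 30446989 counts. Of 8 markers of kidney epithelium and HEK293, 7 were detected in all libraries and PAX8 had at most 8 counts. EPCAM, an epithelial adhesion molecule, was at 134 to 163 CPM in WT and 62.3 to 93.3 CPM in Kl. PTPRC (blood), PECAM1 and CDH5 (endothelium) and DCN (fibroblast) had at most 3 counts in any library, and COL1A1 was at 10.8 to 25.2 CPM. Library 1 of the Kl cells given FGF23 for 1 h stood apart from its group. It differed from its fellow libraries by a chi-square per degree of freedom of 44.5 and 50.3. Libraries 2 and 3 of that group also differed from each other more (19.6) than any 2 libraries within another group (2.13 to 8.995). The chromosome medians, window counts, call counts and named FGF23 fold changes of 1 h are given with and without library 1. The gene values, shares without overlap, list medians and window correlations that use this group include library 1.

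Promoters of 4 genes that sit at the middle of their chromosome's distribution, and of 2 that sit at its ends, show which sequences lie upstream of the genes described. BRPF3 (a scaffold of a histone acetyltransferase complex, chromosome 6), SCRN1 (chromosome 7), RTTN (a centriole protein, chromosome 18) and POFUT2 (an enzyme that adds fucose to secreted proteins, chromosome 21) were among the 3 genes nearest to the median of their chromosome. Both ends follow the rule for named genes, which takes genes of at least 10 CPM. HLA-B (an antigen-presenting molecule) was the lowest gene by that rule on chromosome 6 and COLEC12 (a scavenger receptor) the highest on chromosome 18. Each line holds the 250 bases before the RefSeq start on GRCh38.p14, read 5′ to 3′ on the gene's own strand, and capitals mark 3 motifs on either strand. The GC box was searched as GGGCGG and its reverse complement. The CCAAT box was searched as CCAAT and its reverse complement. The TATA box was searched as TATAAA and its reverse complement, and none was found in the lines shown. The regions are chr6:36196494-36196743 (plus strand) for BRPF3, chr7:29989802-29990051 (minus) for SCRN1 and chr18:70205688-70205937 (minus) for RTTN. They are chr21:45287896-45288145 (minus) for POFUT2, chr6:31357180-31357429 (minus) for HLA-B and chr18:500702-500951 (minus) for COLEC12.
BRPF3: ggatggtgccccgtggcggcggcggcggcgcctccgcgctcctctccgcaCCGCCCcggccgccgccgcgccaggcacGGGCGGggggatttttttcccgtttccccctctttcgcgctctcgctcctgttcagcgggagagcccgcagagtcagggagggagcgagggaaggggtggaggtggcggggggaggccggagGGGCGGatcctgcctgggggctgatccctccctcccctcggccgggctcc
SCRN1: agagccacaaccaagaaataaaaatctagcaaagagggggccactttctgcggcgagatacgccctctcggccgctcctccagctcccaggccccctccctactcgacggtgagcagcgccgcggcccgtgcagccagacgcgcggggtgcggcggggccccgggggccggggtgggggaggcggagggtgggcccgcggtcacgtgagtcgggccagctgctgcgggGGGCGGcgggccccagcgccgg
RTTN: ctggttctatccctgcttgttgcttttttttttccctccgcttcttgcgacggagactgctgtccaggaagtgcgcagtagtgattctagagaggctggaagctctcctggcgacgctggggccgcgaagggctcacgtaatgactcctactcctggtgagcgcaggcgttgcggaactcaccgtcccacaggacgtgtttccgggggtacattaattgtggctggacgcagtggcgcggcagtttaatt
POFUT2: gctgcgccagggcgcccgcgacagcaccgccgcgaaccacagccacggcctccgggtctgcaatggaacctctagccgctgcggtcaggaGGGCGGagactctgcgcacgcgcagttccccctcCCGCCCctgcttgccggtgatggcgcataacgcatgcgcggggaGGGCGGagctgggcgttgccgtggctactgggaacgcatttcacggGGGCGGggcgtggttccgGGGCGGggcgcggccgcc
HLA-B: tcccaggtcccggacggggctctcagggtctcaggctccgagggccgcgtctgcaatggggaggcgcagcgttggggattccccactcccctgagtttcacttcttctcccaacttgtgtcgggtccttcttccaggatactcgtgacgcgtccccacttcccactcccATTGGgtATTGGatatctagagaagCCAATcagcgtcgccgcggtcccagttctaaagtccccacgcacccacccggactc
COLEC12: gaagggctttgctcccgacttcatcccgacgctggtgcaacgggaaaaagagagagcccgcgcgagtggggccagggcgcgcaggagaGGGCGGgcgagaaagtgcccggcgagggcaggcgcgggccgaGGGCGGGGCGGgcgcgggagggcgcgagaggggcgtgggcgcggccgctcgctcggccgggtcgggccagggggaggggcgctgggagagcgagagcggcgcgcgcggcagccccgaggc
The BRPF3 promoter held 3 GC boxes, SCRN1 held 1, POFUT2 held 5 and COLEC12 held 3, of which the last pair overlap. RTTN held no match to any of the 3 motifs, and HLA-B held 3 CCAAT boxes. A RefSeq promoter was found for 1374 of the 1751 genes. Matches of a motif can overlap each other and those of another motif, and each was counted. A GC box was in 68.4% of these promoters, in 42.3% of all 27305 promoters in the RefSeq table and in 69.0% of the 9016 promoters of genes of at least 2 CPM on the other chromosomes. A CCAAT box was in 34.4%, 33% and 35.2% of the same sets and a TATA box in 6.77%, 11.1% and 4.61%. The median GC content was 65.6% both in the promoters of the 4 chromosomes and in those of expressed genes elsewhere. By these letters the promoters of the 4 chromosomes, pooled as a set, were within 3 percentage points of other expressed promoters. Some single chromosomes lay further away. A CCAAT box was in 35% of promoters on chromosome 6, 36.3% on 7, 29.8% on 18 and 28.7% on 21. A TATA box was in 9.05%, 4.1%, 5.85% and 8.51% in the same order.

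Averaged over the 4 matched pairs of groups (Kl against WT at 1 h control, 1 h FGF23, 24 h control and 24 h FGF23), the median gene of chromosome 7 was 1.18-fold higher in Kl, that of chromosome 18 1.13-fold, that of chromosome 6 1.11-fold and that of chromosome 21 1.07-fold. On the log2 CPM scale, with 0.5 CPM added to each value, the medians were 0.23 ± 0.02, 0.18 ± 0.03, 0.15 ± 0.03 and 0.10 ± 0.02 (SD over the 4 pairs, which share no library). Chromosome 7 held the same place in every pair, with 0.22 at 1 h control, 0.25 at 1 h FGF23, 0.22 at 24 h control and 0.25 at 24 h FGF23. Chromosome 6 was at 0.14, 0.14, 0.13 and 0.19, chromosome 18 at 0.15, 0.18, 0.15 and 0.22, and chromosome 21 at 0.07, 0.11, 0.11 and 0.13 in the same order. The median of all 13592 genes was 0.00, 0.03, 0.01 and 0.04.

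Chromosomes 9 and 20 lay on the other side, between -0.36 and -0.29 in every pair, and the remaining 17 ranged from -0.07 (chromosome 11) to 0.08 (chromosome 8). Chromosomes 6, 7 and 18 exceeded each of those 17 in every pair, since their lowest pair value was 0.13 and the highest of the 17 in any pair was 0.11. Chromosome 21 also lay above each of the 17 within every pair, by a smaller margin. Its lowest pair value (0.07) was below the highest of chromosome 8 (0.11) and of chromosome 10 (0.11), which came from another pair.

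**Figure D1:**
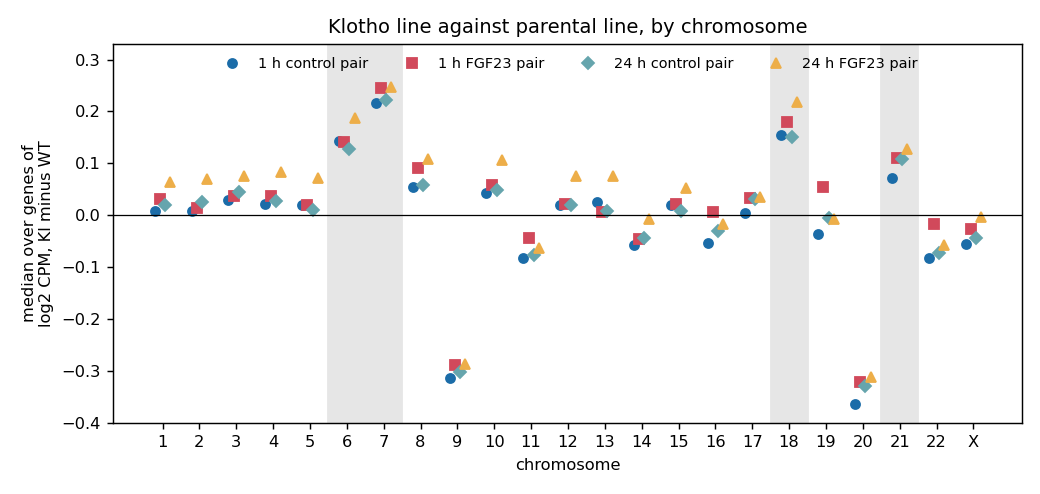
Median over genes of log2 CPM in Kl minus WT (vertical axis) for chromosomes 1 to 22 and X (horizontal axis), with 1 point for each of the 4 pairs of groups and chromosomes 6, 7, 18 and 21 shaded. Chromosome 7 sits highest, at 0.22 to 0.25, the points of chromosome 21 span part of the range of chromosomes 8 and 10, and chromosomes 9 and 20 lie near -0.3.

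The separate libraries showed the same order. Taking each library against the mean of the 12 WT libraries, the chromosome 7 median ran from -0.03 to 0.02 in WT (median 0.00) and from 0.20 to 0.28 in Kl (median 0.23). Every Kl library lay above every WT library for chromosome 7. Chromosome 6 gave -0.02 to 0.03 in WT (median 0.00) and 0.09 to 0.20 in Kl (median 0.15), and chromosome 21 gave -0.02 to 0.02 in WT (median 0.00) and 0.03 to 0.15 in Kl (median 0.08), without overlap for either. Chromosome 18 gave -0.03 to 0.04 in WT (median 0.00) and 0.02 to 0.26 in Kl (median 0.18). The overlap on chromosome 18 came from 1 library, library 1 of Kl given FGF23 for 1 h (0.02), next to 0.23 and 0.18 in libraries 2 and 3 of its group. That library had the lowest Kl value on all 4 chromosomes. Without it the means over 4 pairs were 0.16, 0.23, 0.19 and 0.11 for chromosomes 6, 7, 18 and 21. The genes of the other 17 chromosomes gave -0.01 to 0.02 in WT and -0.01 to 0.05 in Kl.

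Within Kl at 24 h, treated libraries had slightly higher values than controls on chromosomes 6, 7 and 18, and overlapped them on chromosome 21. Chromosome 18 was at 0.13 to 0.16 in the 3 control libraries and 0.19 to 0.26 in the 3 treated ones. Chromosome 6 was at 0.12 to 0.14 and 0.16 to 0.20, chromosome 7 at 0.224 to 0.235 and 0.239 to 0.277, and chromosome 21 at 0.08 to 0.10 and 0.08 to 0.13. The other 17 chromosomes also lay higher in those treated libraries, at 0.02 to 0.05 against 0.01, so a part of the step was shared by the rest of the genome. No test was made of these medians.

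**Figure D2:**
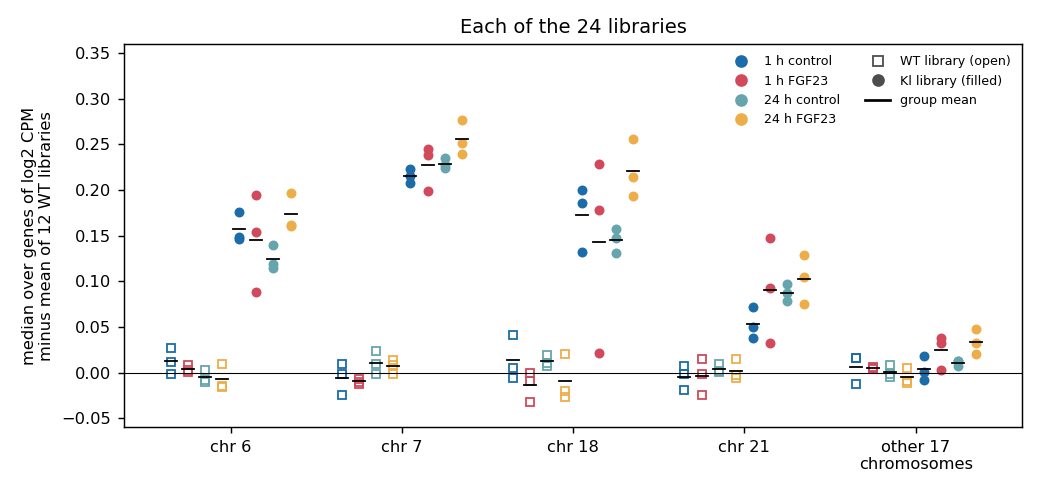
Median over genes of log2 CPM minus the mean of the 12 WT libraries (vertical axis) for chromosomes 6, 7, 18 and 21 and for the other 17 chromosomes, with open squares for WT libraries, filled circles for Kl libraries, colours for control or FGF23 at each time, and black bars for the mean of 3 libraries. On chromosomes 6, 7 and 21 every Kl library lies above every WT library of the same chromosome, on chromosome 18 the value of 0.02 in 1 Kl library given FGF23 for 1 h falls among the WT values, and on the other 17 chromosomes the lines overlap.

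The shift was carried by most genes and not by a few. On chromosome 7, 90.3% of genes had a mean log2 Kl over WT above 0, on chromosome 6 81.9%, on chromosome 18 81.8% and on chromosome 21 71.0%, against 55.4% of all genes. Genes above 0 in all 4 pairs made up 68.9%, 55.5%, 58.4% and 35.9% of these chromosomes and 27.0% of all genes. The interquartile range of gene values was 0.21 on chromosome 7, 0.20 on chromosome 6, 0.23 on chromosome 18 and 0.20 on chromosome 21, within the 0.18 to 0.24 of the other 17 chromosomes. The distributions of the 4 chromosomes were thus about as wide as elsewhere and lay further to the right. Only 3 of the 1751 genes exceeded 1 on the log2 scale and 2 lay under -1. Those above were COLEC12, ETV1 and RFX6, a pancreatic and gut transcription factor (1.06, at a mean of 2.61 CPM). Those below were PTN, the growth factor pleiotrophin, at 8.97 to 18.4 CPM in WT (median 13.8) and 2.78 to 6.38 CPM in Kl (median 4.20), or -1.61 ± 0.14, and HCP5, a noncoding RNA of the class I region (-1.38 at a mean of 4.96 CPM). RFX6, PTN and HCP5 lie outside the rule for named genes and were named after their values were seen.

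Each gene was also checked for overlap between its 3 Kl and 3 WT libraries. All 3 Kl libraries lay above all 3 WT libraries for 45.2% of the genes at 1 h control, where the share over all genes was 18.5%. The shares were 37.2% at 1 h FGF23 (16.6% of all genes), 52.0% at 24 h control (28.0%) and 58.5% at 24 h FGF23 (32.5%). This held in each of the 4 pairs for 340 genes or 19.4%, against 5.58% of all genes, with 179 of them on chromosome 7, 109 on 6, 41 on 18 and 11 on 21. The opposite order in all 4 pairs was found for 19 genes, or 1.09%, against 5.58% of all genes. Since the chromosomes were chosen on these values, nothing more is read from the shares.

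**Figure D3:**
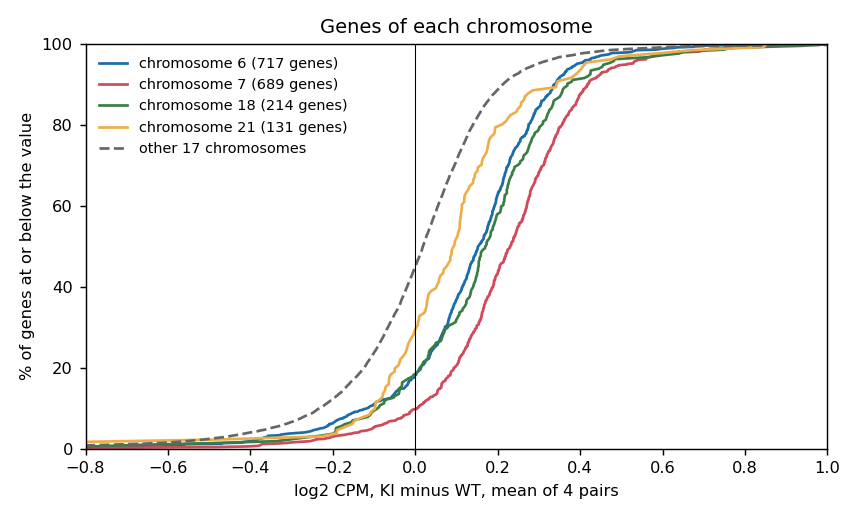
Cumulative share of genes in percent (vertical axis) against log2 CPM in Kl minus WT, mean of 4 pairs (horizontal axis, cut at -0.8 and 1), for the 717, 689, 214 and 131 genes of chromosomes 6, 7, 18 and 21 and for the genes of the other 17 chromosomes (dashed). All 4 solid curves lie to the right of the dashed one over the middle of the range, and chromosome 7 lies furthest right, with 90.3% of its genes above 0.

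The size of the shift varied with transcript level, on these chromosomes as on the others. Genes of 2 to 10 CPM had a median of 0.08 on chromosome 6, 0.14 on 7, 0.05 on 18 and 0.07 on 21. Genes over 50 CPM had 0.18, 0.27, 0.20 and 0.09. On the other 17 chromosomes the same classes gave -0.06 and 0.05, so genes of low level had lower values there too. Relative to those classes chromosome 7 stood at 0.20, 0.23 and 0.23 for low, middle and high genes. Chromosome 6 stood at 0.14, 0.13 and 0.13, chromosome 18 at 0.11, 0.14 and 0.15, and chromosome 21 at 0.13, 0.11 and 0.04. Protein-coding genes had higher medians than noncoding RNA genes on each of these chromosomes, with 0.24 for 580 coding and 0.19 for 55 noncoding genes on chromosome 7 and 0.19 for 189 and 0.02 for 19 on chromosome 18. On the other 17 chromosomes the medians were 0.02 and -0.07. Genes with under 42% GC and with 50% or more had 0.25 and 0.22 on chromosome 7, 0.16 and 0.15 on 6, 0.18 and 0.17 on 18, and 0.07 and 0.11 on 21. With the GC trend of the Kl minus WT values removed in each pair, the chromosome medians were 0.13 (6), 0.22 (7), 0.15 (18) and 0.08 (21). Subtracting the trend also takes out the overall level of the pair, so the change in the medians cannot be read as GC alone. That removal was chosen after the values were seen.

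Window by window, the shift ran along most of chromosomes 6, 7 and 18 and was less even on chromosome 21. The mean over 4 pairs was above 0 in 47 of the 48 windows, against 162 of 234 on the other 17 chromosomes. By this measure all windows of chromosomes 3 (20 windows), 8 (15) and 17 (9) were also above 0. Of the 48 windows, 45 (93.8%) were above 0 in all 4 pairs, against 90 of 234 windows (38.5%) on the other 17 chromosomes. In 32 windows (66.7%) the window medians of the 3 Kl libraries all exceeded those of the 3 WT libraries in each pair, against 12.6% of all 302 windows of the genome. With the 1 h FGF23 pair set aside, chosen after the values were seen, 41 windows did so, against 20.2% of all windows. Neighbouring windows differed by a median of 0.03 on chromosome 6, 0.04 on 7, 0.01 on 18 and 0.09 on 21. The median spread of a window over the 4 pairs was an SD of 0.04, 0.03, 0.05 and 0.05, so the median step lay below that spread on chromosomes 6 and 18 and above it on 7 (0.038 and 0.033) and 21 (0.086 and 0.054). Over a sliding run of 25 genes the median stayed above 0 in all 693 runs on chromosome 6, 665 on 7, 190 on 18 and 107 on 21. The lowest runs were at 0.015, 0.119, 0.065 and 0.05. Successive runs share most of their genes, so their number is not a number of separate observations. No share for the other chromosomes is given beside it, so the count is not read as particular to these chromosomes.

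**Figure D4:**
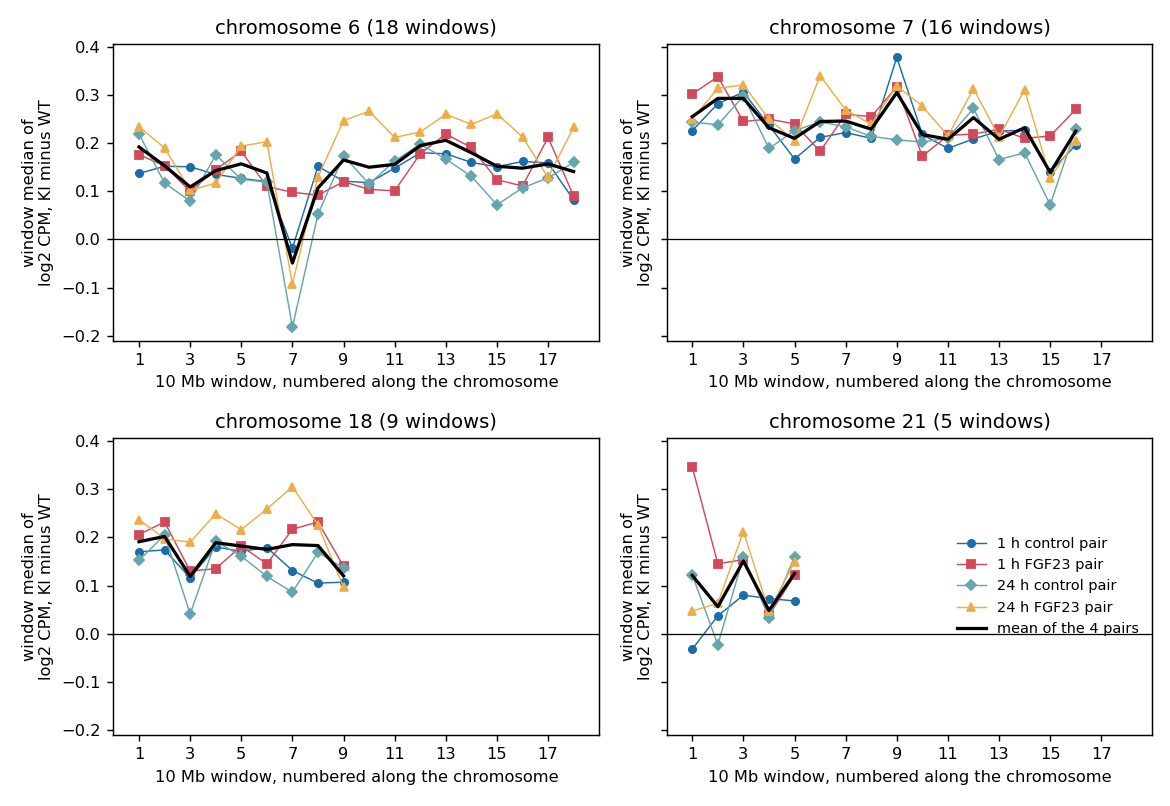
Median over genes of log2 CPM in Kl minus WT (vertical axis) for 10 Mb windows numbered along chromosomes 6, 7, 18 and 21 (horizontal axis), with coloured lines for the 4 pairs of groups and a black line for their mean. The mean stays between 0.14 and 0.31 along chromosome 7 and falls under 0 once, to -0.05 in the window of 7 genes on chromosome 6.

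Chromosome 7 was higher along its whole length. All 16 of its windows had Kl libraries clear of WT libraries in all 4 pairs, with means from 0.14 to 0.31. The highest window, 80 to 90 Mb with 18 genes, had pair values of 0.38, 0.32, 0.21 and 0.32, and all 18 genes lay above 0. The lowest, 140 to 150 Mb with 47 genes, had 0.14, 0.22, 0.07 and 0.13, with 36 genes above 0. In that window the 3 Kl libraries of 24 h controls lay at 0.11 to 0.12 and the 3 WT libraries at -0.01 to 0.01, so the groups did not overlap even there. The window of 20 to 30 Mb, which holds the HOXA cluster, was at 0.29, with its middle range of genes from 0.18 to 0.45.

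On chromosome 6 the 18 windows ran from -0.05 to 0.21, and 11 had separate libraries in all 4 pairs. The largest window, 30 to 40 Mb with 145 genes, includes the major histocompatibility complex and was at 0.14, with 115 genes above 0. The highest, 120 to 130 Mb with 21 genes, was at 0.21, with 20 above 0. The exception was 60 to 70 Mb, with 7 genes at 2 CPM or more and pair values of -0.02, 0.10, -0.18 and -0.09. In its 24 h control pair the 3 Kl libraries lay at -0.21 to -0.10, below WT at 0.00 to 0.01. The windows on either side were at 0.14 and 0.11. Of its 7 genes, PHF3 (150 CPM) was at 0.11 and LMBRD1, a lysosomal cobalamin transporter (56.4 CPM), at 0.06. COL19A1, a collagen (5.30 CPM), was at -0.22, FKBP1C (11.9 CPM) at -0.18, AL135905.1 (4.06 CPM) at -0.24, PTP4A1 (2.40 CPM) at -0.07 and AL135905.2 (11.3 CPM) at 0.21. PTP4A1, AL135905.1 and AL135905.2 overlap, and strand use in the counting is not stated, so their counts are uncertain. The 2 genes over 50 CPM lay above 0 and 4 of the 5 lower ones below it.

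Chromosome 18 was even along its length, with 9 windows from 0.12 to 0.20, all above 0 in every pair. Libraries were separate in all 4 pairs for 5 windows, and in the other 3 pairs for 8 when the 1 h FGF23 pair was set aside. Chromosome 21 was the least even. Its windows ran from 0.05 to 0.15, 3 of the 5 were above 0 in all 4 pairs and none had separate libraries in all 4. With the 1 h FGF23 pair set aside, 1 of the 5 had separate libraries in the other 3 pairs. The window of 0 to 10 Mb, with 7 genes, gave -0.03, 0.35, 0.12 and 0.05, a wider scatter than any other here. Genes of this window include SIK1B, a near copy of SIK1 on the same chromosome. The window of 30 to 40 Mb, with 51 genes, was at 0.05, with 31 genes above 0, and that of 40 to 50 Mb, with 48 genes, at 0.13, with 36 above 0.

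Over all 48 windows, and within chromosomes 6 and 7, pairs that share no library ranked the windows in partly the same way. Pearson's r between pairs over the 48 windows ran from 0.37 (1 h FGF23 with 24 h FGF23) to 0.74 (1 h control with 24 h FGF23). This includes the difference in mean level between chromosomes. Within chromosome 6 alone (18 windows) r ran from 0.24 to 0.79 and within chromosome 7 (16 windows) from 0.11 to 0.68. Within chromosome 18 (9 windows) it ran from -0.07 to 0.48 and within chromosome 21 (5 windows) from -0.90 to 0.69, so there the pairs did not share an order. The windows share genes, gene levels and library preparation between pairs, and no p is given.

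Under the rule for named genes (at least 10 CPM), chromosome 6 was led by LIN28B, LAMA4 and KCNQ5. LIN28B is an RNA-binding protein that blocks let-7 maturation, LAMA4 a laminin chain of basement membranes and KCNQ5 a potassium channel. LIN28B ran from 39.0 to 52.3 CPM in the 12 WT libraries (median 43.3) and from 55.4 to 91.1 in the 12 Kl libraries (median 78.0), a mean log2 difference of 0.75 ± 0.25 (SD of 4 pairs). LAMA4 gave 50 to 67 CPM in WT (median 58.1) and 69.7 to 132 CPM in Kl (median 90.8). The lines did not overlap for either gene. KCNQ5 gave 8.12 to 11.9 CPM in WT (median 9.93) and 11.4 to 18.3 CPM in Kl (median 15.6), overlapping only when pairs are pooled.

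At the low end, HLA-B ran from 133 to 164 CPM in WT (median 150) and from 78.2 to 120 in Kl (median 85.3), or -0.75 ± 0.06. MAPK13, a p38 kinase, was at 29.9 to 38.2 CPM in WT (median 34.1) and 17.9 to 27.7 in Kl (median 21.7), and COL12A1, a fibril-associated collagen, had a mean log2 difference of -0.56 ± 0.24. For HLA-B and MAPK13 every Kl library lay below every WT library, against the direction of the chromosome.

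Chromosome 7 was led by ETV1, an ETS transcription factor, INSIG1, which holds the sterol sensor SCAP in the endoplasmic reticulum, and TSPAN12, a tetraspanin. ETV1 was at 6.72 to 9.73 CPM in WT (median 7.56) and 10.5 to 50.4 CPM in Kl (median 14.6), with its highest Kl values in the 24 h FGF23 group. INSIG1 was at 245 to 308 CPM in WT (median 267) and 362 to 820 CPM in Kl (median 469). TSPAN12 was at 30.7 to 36.7 CPM in WT (median 33.6) and 46.0 to 69.6 CPM in Kl (median 60.1). All 3 had no overlap between lines. Near the middle of the chromosome, SCRN1 was at 166 to 187 CPM in WT (median 178) and 191 to 220 in Kl (median 211). That is 0.23 ± 0.02 over pairs, again without overlap. On chromosome 7 no gene with a symbol and at least 10 CPM lay lower in Kl without overlap in each of the 4 pairs. Of all 689 genes of the chromosome 3 did, PTN among them, or 0.435% beside 5.58% of all genes.

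Chromosome 18 was led by COLEC12, at 12 to 16.2 CPM in WT (median 13.5) and 22.6 to 31.9 CPM in Kl (median 29.3), or 1.01 ± 0.08. LAMA1, the laminin chain of early basement membranes, followed at 0.77 ± 0.11 and CYB5A, the electron carrier cytochrome b5, at 0.65 ± 0.21. DSEL, a dermatan sulfate epimerase-like protein, was the only gene of the chromosome among its extremes that went the other way without overlap, with 15.7 to 22.1 CPM in WT (median 19) and 8.90 to 15.2 in Kl (median 11.1). On chromosome 21 the highest were ADAMTS1, a secreted metalloproteinase, at 439 to 626 CPM in WT (median 598) and 695 to 1540 in Kl (median 981), PRMT2, an arginine methyltransferase, at 0.42 ± 0.12, and LSS, the lanosterol synthase of cholesterol synthesis, at 0.40 ± 0.19. RIPPLY3, a partner of T-box factors, was the low exception, at 15.9 to 19.9 CPM in WT (median 17.9) and 6.91 to 11.5 in Kl (median 10.2). The ranges of the 2 lines were apart for COLEC12, ADAMTS1, DSEL and RIPPLY3.

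Gene groups differed in how far they followed their chromosome. The HOXA cluster on chromosome 7 holds homeobox genes that give cells positional identity. Of 14 listed genes, 12 were at 2 CPM or more, including the antisense RNA HOTAIRM1. All 12 were above 0, beside 90.3% of the genes of the chromosome. Their median was 0.51, where all genes of the chromosome had 0.23. HOXA5 was at 21.3 to 27.4 CPM in WT (median 24.6) and 34.9 to 56.2 CPM in Kl (median 41.5), and HOXA11 at 15.4 to 19.3 CPM in WT (median 18) and 23.8 to 29.5 CPM in Kl (median 25.9). Both were without overlap, whereas HOXA9, at 41.2 to 58.3 CPM in WT (median 48.7) and 45.1 to 61.7 CPM in Kl (median 52.8), overlapped widely. Of the 12 genes of the cluster, 7 (HOTAIRM1 among them) had separate libraries in all 4 pairs, against 26.0% of the genes of the chromosome.

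Class I antigen presentation genes on chromosome 6 lay against their surroundings. Of 8 measured genes out of 11 listed, 6 were below 0 and the median was -0.23, where all genes of the chromosome had 0.15. On the whole chromosome 81.9% of genes were above 0. HLA-C was at 390 to 520 CPM in WT (median 451) and 312 to 558 CPM in Kl (median 371). HLA-B and HLA-C are polymorphic and share sequence with each other, so the division of reads between them is uncertain. The peptide transporter gene TAP2 was at 0.24 and its partner TAP1 at -0.19. The HIST1 histone genes, measured for 13 of 56, had a median of 0.04 with 8 above 0.

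Among heat shock genes of chromosomes 6 and 7, HSP90AB1, the constitutive cytosolic HSP90, was at 1210 to 1400 CPM in WT (median 1300) and 1500 to 1920 CPM in Kl (median 1680), without overlap. DNAJB6, a co-chaperone, was at 0.31 ± 0.05. The stress-induced HSPA1A and HSPA1B are near copies, so their separate counts are uncertain. They were at -0.10 ± 0.50 and 0.21 ± 0.47, which is a wider scatter than their means. Among receptors and kinases of chromosome 7, 10 of 11 measured genes were above 0, beside 90.3% of all genes of the chromosome. CDK6, a cyclin D partner, was at 80.3 to 96.7 CPM in WT (median 87.4) and 87.5 to 169 CPM in Kl (median 134), and MET, the HGF receptor, at 47.4 to 56.2 CPM in WT (median 51.9) and 62.7 to 92.3 CPM in Kl (median 73.8). CAV1, caveolin, was at -0.03 ± 0.07.

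All 10 SMAD and survival genes of chromosome 18 were above 0, with a median of 0.27. Of all genes of that chromosome 81.8% were above 0, and the median was 0.18. BCL2, the anti-apoptotic founder of its family, was at 12.1 to 16.9 CPM in WT (median 14.8) and 16.7 to 34.8 CPM in Kl (median 20.4). TCF4, a basic helix-loop-helix factor, was at 0.45 ± 0.05 and SMAD2, a TGF-beta signal transducer, at 0.24 ± 0.05. Among 5 measured cadherins, N-cadherin (CDH2) was at 0.32 ± 0.12 and desmocollin 3 (DSC3) at -0.17 ± 0.13. On chromosome 21, 13 of 17 measured genes known from dosage studies of that chromosome were above 0, with a median of 0.11. Of all genes of chromosome 21, 71.0% were above 0, and the median was 0.10. The 3 measured interferon receptor genes lay at 0.07 to 0.13. APP, the amyloid precursor, was at 543 to 637 CPM in WT (median 577) and 632 to 842 CPM in Kl (median 697), and BACE2 at 0.27 ± 0.09. The kinase gene DYRK1A was at -0.08 ± 0.05 and SOD1 at 0.11 ± 0.16. U2AF1 and CBS have near-identical copies on the same chromosome, so their counts are uncertain.

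The response to FGF23 compares libraries within 1 line, was not used to choose the chromosomes, and was tested. With edgeR's quasi-likelihood test and a Benjamini-Hochberg adjusted p under 0.05 over all genes tested, 11 of the 1751 genes were called in Kl at 1 h, 10 higher and 1 lower. That is 0.628%, beside 0.633% of all genes at this level (0.618% higher and 0.0147% lower). At 24 h in Kl 440 genes were called, 273 higher and 167 lower, or 25.1% beside 22.3% of all genes. WT cells gave no call at 1 h (0.0% of all genes). There, 58 of the 1751 genes had an unadjusted p under 0.05 in edgeR, beside 683 of all 16748 genes tested, and DESeq2 also called none. At 24 h WT gave 12 calls, 1 higher and 11 lower, or 0.685% beside 0.817% of all genes. Shares of the 4 chromosomes together were thus close to those of the genome.

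**Figure D5:**
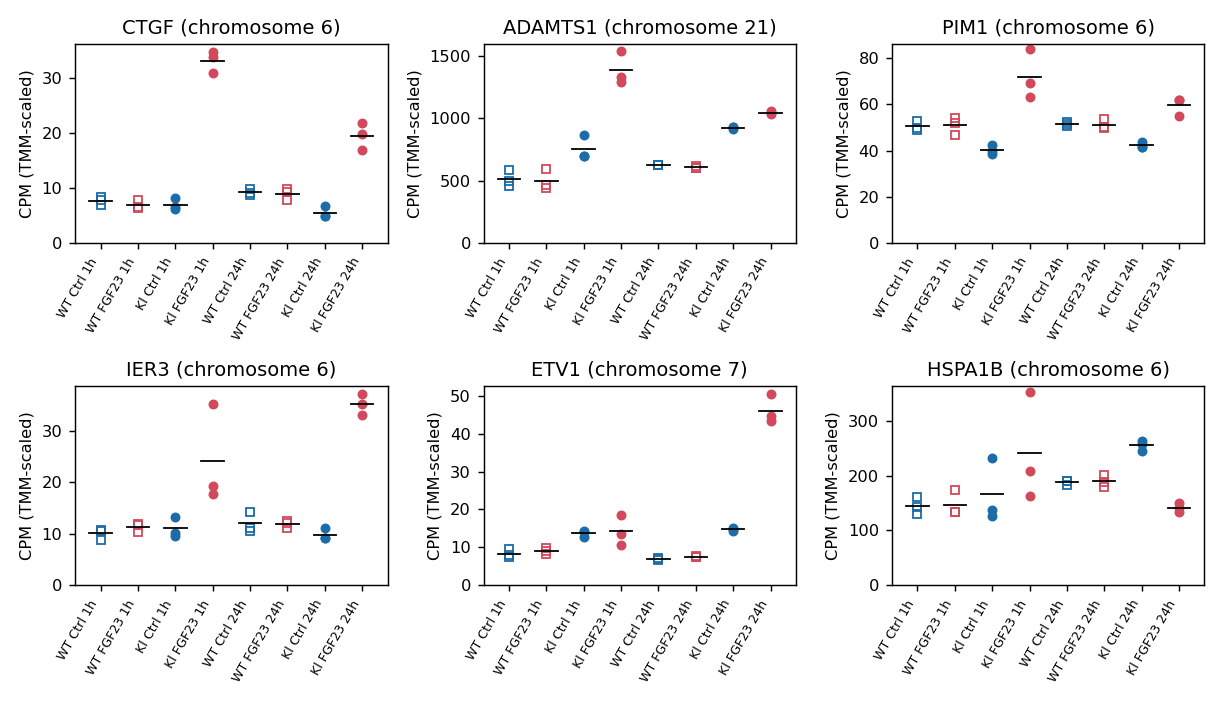
CPM (vertical axis, from 0) of 6 genes of chromosomes 6, 7 and 21 in each of the 3 libraries of the 8 groups (horizontal axis), with open squares for WT, filled circles for Kl, blue for control, red for FGF23 and black bars for group means. CTGF, ADAMTS1 and PIM1 stand higher in Kl at 1 h of FGF23, IER3 and ETV1 at 24 h, and HSPA1B lower at 24 h, while the WT groups of each time lie close together.

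At 1 h in Kl the called genes included immediate targets of growth signals. CTGF, a matricellular protein and target of YAP and SRF, was at 6.13, 8.21 and 6.50 CPM in Kl controls and at 33.8, 34.7 and 31 CPM after FGF23. All treated libraries lay far above the controls, with a log2 fold change of 2.24 ± 0.15 (SE) and an edgeR adjusted p of 4.73e-06. ADAMTS1 was at 697, 695 and 866 CPM in controls and 1290, 1330 and 1540 CPM after FGF23 (0.86 ± 0.12, edgeR adjusted p = 0.00404). PIM1, a serine/threonine kinase, went from 42.3, 39.9 and 38.4 CPM to 83.9, 69.2 and 63.0 CPM (0.83 ± 0.13, edgeR adjusted p = 0.00867). SRF itself, the serum response factor, went from 111, 106 and 107 CPM to 235, 161 and 173 CPM (0.80 ± 0.14, edgeR adjusted p = 0.0196).

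OLIG2, a helix-loop-helix factor, had a log2 fold change of 1.64 at 1 h, SIK1B 1.25, ZYX, the focal adhesion protein zyxin, 0.81, and ID4, an inhibitor of helix-loop-helix factors, 0.63. The pseudogene ZNF192P1 fell, from 3.59, 3.71 and 4.24 CPM to 1.71, 1.89 and 1.75 CPM. Without library 1 of the treated group, which stands apart, the log2 fold changes were 2.21 for CTGF, 1.74 for OLIG2, 1.31 for SIK1B, 0.90 for ADAMTS1, 0.69 for PIM1, 0.61 for SRF, 0.64 for ID4, -1.10 for ZNF192P1 and 0.74 for ZYX, and ZYX was no longer called. The number of calls moved with single libraries. It was 26 without library 1 of the treated group, 17 without library 2 and 7 without library 3, and 2, 1 and 4 without libraries 1, 2 and 3 of the controls. Same-numbered Kl libraries deviated together at 1 h, and with the replicate number as a block 27 genes were called, 24 higher and 3 lower, among them all 11. In the WT cells CTGF was at 6.27 to 8.41 CPM in all 6 libraries of 1 h. The line-by-FGF23 interaction at 1 h called 4 genes, all with a larger response in Kl, or 0.228% beside 0.427% of all genes: CTGF (2.40 ± 0.19), ADAMTS1 (0.90 ± 0.17), PIM1 (0.81 ± 0.15) and ID4 (0.69 ± 0.11). Without library 1 of the Kl treated group the interactions were 2.38, 0.93, 0.68 and 0.69, that of ADAMTS1 was no longer called, and 14 genes were called in all. The test called 13 without library 2 of that group. It called 2 without library 2 of the WT controls, library 1 of the WT treated group or library 2 of the Kl controls.

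At 24 h in Kl the largest increases were spread over the chromosomes. TFPI2, a Kunitz protease inhibitor of chromosome 7, went from 7.53, 7.08 and 5.80 CPM to 30.7, 28.0 and 26.0 CPM (2.03 ± 0.10, edgeR adjusted p = 1.23e-14). IER3, an early response gene of chromosome 6, went from 11.1, 9.19 and 9.12 CPM to 33.1, 37.2 and 35.2 CPM (1.82 ± 0.09, edgeR adjusted p = 5.67e-15). CTGF stayed high, at 21.8, 16.9 and 19.8 CPM against 4.83, 4.84 and 6.70 CPM. ETV1 went from 14.7, 15.2 and 14.4 CPM to 43.3, 50.4 and 44.7 CPM (1.62 ± 0.08, edgeR adjusted p = 3.26e-15). This pair also enters the mean of ETV1 given above, with a log2 Kl over WT of 2.54, where the other 3 pairs had 0.69, 0.61 and 1.03. SERPINB8, a protease inhibitor, LIPG, endothelial lipase, ASNS, asparagine synthetase and an ATF4 target, and TAC1, the substance P precursor, had log2 fold changes of 1.77, 1.71, 1.56 and 1.43.

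Among genes that fell, HSPA1A went from 177, 164 and 207 CPM to 96.1, 85.4 and 87.4 CPM (-1.05 ± 0.08, edgeR adjusted p = 1.21e-05) and HSPA1B from 257, 245 and 263 CPM to 150, 140 and 134 CPM (-0.87 ± 0.05, edgeR adjusted p = 2.51e-14). COL21A1, a fibril-associated collagen, went from 13.3, 14.5 and 12.7 CPM to 6.13, 6.73 and 5.65 CPM. None of the 3 overlapped between groups. CCBE1, a lymphatic growth regulator, PRSS35, a protease-like protein, the noncoding TP53TG1, and SIK1B had log2 fold changes of -0.69, -0.76, -0.76 and -0.93. SMIM11A, at -1.34 ± 0.35, is a small gene with a near-identical copy and single libraries of 8.52 to 14.5 CPM beside 0.718 to 3.68 CPM in the others, and its call is uncertain. The number called at 24 h ran from 273, without library 3 of the treated group, to 561, without library 1 of that group. Without library 2 of the treated group it was 282, and without library 3 of the controls 287.

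The chromosomes differed in direction at 24 h in Kl. On chromosome 18, 22% of genes were called higher and 7.48% lower, beside 12% and 10.3% of all genes. On chromosome 21, 15.3% were higher and 17.6% lower. Chromosome 6 had 16.7% and 8.09%, and chromosome 7, with 12.5% and 10.2%, lay close to the genome. The split depended on scaling. Over the 4 chromosomes together it was 273 higher and 167 lower with TMM, and 240 and 187 with library size as the only scaling. In the listed groups, 6 of 11 measured receptors and kinases of chromosome 7 rose, among them GRB10, an adaptor of insulin signalling (0.73), EGFR (0.50) and MET (0.25), and CDK5 fell (-0.22). Of 10 SMAD and survival genes of chromosome 18, 4 rose, with BCL2 at 0.67, PMAIP1, a pro-apoptotic BH3 protein, at 0.54, SMAD7, an inhibitor of TGF-beta signalling, at 0.42 and YES1 at 0.22, while the thymidylate synthase gene TYMS fell (-0.16).

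Of 17 dosage genes of chromosome 21, 5 rose and 2 fell, with RUNX1 at 0.64 and SYNJ1 at 0.45 among the first and SOD1 at -0.26 and HMGN1 at -0.21. For RUNX1 the Kl controls of 24 h were at 31.7, 32.5 and 30.9 CPM and the treated libraries at 45.1, 53.8 and 50.6 CPM. The 2 interferon receptor genes that rose were IFNGR2 (0.24) and IFNAR1 (0.19). Of 20 measured ERK, ATF4 and stress genes, 14 rose and 2 fell, with VEGFA, the angiogenic growth factor, at 0.85 and SESN1 at -0.26 and MAFK at -0.29 as the 2 that fell. That list and the other gene lists were drawn up with earlier results of these libraries known. Their counts are not independent evidence of direction. Of all genes, 12% were called higher in Kl at 24 h and 10.3% lower. In the class I group HLA-B rose by 0.17 and TAP1 fell (-0.30), and of 12 genes of the HOXA cluster only HOXA10 was called (0.25).

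At 24 h 335 genes responded differently in the lines by the interaction test, 205 with a higher and 130 with a lower value in Kl, or 19.1% beside 17.9% of all genes (9.6% higher and 8.33% lower). The largest were TFPI2 (2.11 ± 0.16), ASNS (1.96 ± 0.26), CTGF (1.84 ± 0.18), IER3 (1.81 ± 0.14) and LIPG (1.67 ± 0.21), and at the low end COL21A1 (-1.16 ± 0.15), HSPA1A (-1.06 ± 0.13), SIK1B (-0.95 ± 0.27), HSPA1B (-0.90 ± 0.06) and VPS37D, an ESCRT subunit (-0.86 ± 0.20). For IER3 the 6 WT libraries of 24 h lay between 10.6 and 14.2 CPM, and for HSPA1B between 180 and 201 CPM, with control and treated groups overlapping. The 12 calls in WT at 24 h were small. KMT2C, a histone methyltransferase, went from 108, 100 and 104 CPM to 85.5, 91.4 and 82.5 CPM (-0.25 ± 0.04, edgeR adjusted p = 0.000349), and TRRAP, a scaffold of acetyltransferase complexes, from 267, 277 and 281 CPM to 233, 244 and 230 CPM (-0.21 ± 0.03, edgeR adjusted p = 3.42e-05). C6orf48 was the 1 that rose (0.28). HIPK2, ZC3HAV1, ARFGEF3 and FLNC were at -0.21 to -0.20, and UTRN and UHRF1BP1 at -0.16. These calls ranged from 2, without library 3 of the treated group, to 57, without library 2 of it, and fitting all 24 libraries together gave 0. Among the other libraries left out singly, library 1 of the treated group gave 5 and libraries 1, 2 and 3 of the controls 7, 6 and 4.

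Whether log2 Kl over WT was the same at both control times was tested as a line-by-time interaction. The chromosomes were chosen on log2 Kl over WT in these same control libraries, so the calls are not independent of that choice. Only the change between the times was tested, not the difference between the lines itself. It called 111 of the 1751 genes (6.34%, beside 5.71% of all genes, 3.43% higher and 2.28% lower), 50 with a higher log2 Kl over WT at 24 h and 61 with a lower one. With library size as the only scaling the split was 19 and 79. CCT6A, a subunit of the cytosolic chaperonin, was at 404, 396 and 371 CPM in Kl and 363, 341 and 326 CPM in WT at 1 h, and at 408, 410 and 413 CPM in Kl and 264, 265 and 262 CPM in WT at 24 h (0.46 ± 0.06, edgeR adjusted p = 2.86e-06). SAMD9, an antiviral restriction factor, was at 19.2, 19.1 and 21.7 CPM in Kl at 1 h and 11.1, 10.7 and 10.9 CPM at 24 h, with WT at 8.12 to 10.8 CPM at both times (-0.86 ± 0.16, edgeR adjusted p = 0.000907). The count ran from 53, without library 1 of the WT controls of 1 h, to 172, without library 3 of the Kl controls of 1 h. It was 54 to 72 without each of WT 24 h libraries 1, 2 and 3, Kl 24 h libraries 1, 2 and 3 and Kl 1 h library 1. Over all 1751 genes the median interaction was -0.003 on the log2 scale, and by chromosome it was -0.01 on 6, 0.01 on 7, -0.04 on 18 and 0.04 on 21.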

How the data were processed

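RNA from 24 libraries (NEBNext Ultra kit, per the labels' protocols) came in 4 tables, each with the FGF23 and control libraries of 1 line at 1 time. The authors deposited raw counts and FPKM per gene, per the file headers. The aligner, the counting tool and whether strand was used are not given in the sources used here. The submitters' processing notes name mm10, but 34299 of 34305 gene entries have the start and end of human GENCODE on GRCh38, so coordinates are read as GRCh38. FPKM served only for description. Libraries held 15849564 to 30446989 counts, and genes not listed in a table were taken as 0 there (such genes had at most 30 counts in any library of the other tables).

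Counts were scaled by TMM to CPM, 0.5 CPM was added, and log2 means of 3 libraries were subtracted, Kl minus WT, in 4 pairs of groups. Chromosome and window values are medians over genes of at least 2 CPM, in windows of at least 5 genes. FGF23 and interaction effects were tested with edgeR 4.0.16 (R 4.3.3, quasi-likelihood, Benjamini-Hochberg over all genes tested, threshold 0.05) on the groups compared. DESeq2 1.42.0 was an alternative, and the edgeR step was tested on simulated data. Medians were computed with pandas 2.3.3 under Python 3.11.15 (statsmodels 0.14.6 for the GC trend) and drawn with matplotlib 3.10.9. Members and gene lists were chosen with earlier results of these data known.

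Named genes were, on each chromosome, the 3 highest, the 3 lowest (genes of at least 10 CPM without overlap in any pair) and the 3 nearest to the median. For FGF23 contrasts they were the 8 highest and 8 lowest called, for interactions the 5 highest and 5 lowest, plus listed genes, some of which are not reported here. The replicate numbers come from the labels, which do not say that they mark a shared culture. Deviations of same-numbered Kl libraries at 1 h correlated at 0.163, 0.299 and 0.167, each over 0.1. Those of same-numbered WT libraries at 1 h correlated at 0.088, 0.143 and 0.209. The lowest value in any contrast was -0.054, in Kl at 24 h. The main fits of all contrasts had no block, and the number as a block was run as an alternative.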

Additional observations from a re-analysis of the deposited data

Results flagged for a closer look

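The response to FGF23 at 1 h differed between the lines by edgeR's interaction test for CTGF (log2 difference 2.40), ADAMTS1 (0.90), PIM1 (0.81) and ID4 (0.69), with the larger rise in Kl. At 24 h the response was higher in Kl for TFPI2 (2.11), ASNS (1.96), CTGF (1.84), IER3 (1.81) and LIPG (1.67). It was lower in Kl for COL21A1 (-1.16), HSPA1A (-1.06), SIK1B (-0.95), HSPA1B (-0.90) and VPS37D (-0.86). In controls, log2 Kl over WT was higher at 24 h than at 1 h for SLC12A9 (0.53), PRKAR1B (0.53), WDR4 (0.47), CCT6A (0.46) and ZBTB12 (0.42). It was lower at 24 h for ABCB4 (-1.08), FILIP1 (-1.01), SAMD9 (-0.86), ULBP2 (-0.84) and LIPG (-0.77), and of these all but SAMD9 went from a mean above WT at 1 h to a mean below WT at 24 h. LIPG thus appears in both tests at 24 h, which share the Kl and WT controls of that time. All the interaction tests draw on libraries whose log2 Kl over WT served to choose the chromosomes.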

How the results depend on the processing

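The chromosome medians stayed above 0 under every alternative run. With library size as the only scaling they were 0.094 (chromosome 6), 0.177 (7) and 0.049 (21), and without the level filter 0.026, 0.067, 0.014 and 0.001 for chromosomes 6, 7, 18 and 21. Leaving out 1 library gave 0.145 to 0.158, 0.23 to 0.236, 0.164 to 0.19 and 0.095 to 0.107. Called genes for FGF23 in Kl at 1 h went from 11 to 23 with DESeq2, 27 without a count filter, 96 with all 24 libraries in 1 fit and 27 with the replicate block, and from 1 to 26 with 1 library left out. In Kl at 24 h 440 became 200 with all 24 libraries, and 273 to 561 with 1 left out. In WT the replicate block gave 1 call at 1 h, 1 library left out gave 0 to 1, and at 24 h 12 became 0 with all 24 libraries and 2 to 57 with 1 left out. The interaction at 1 h went from 4 to 11 with DESeq2, 23 without a count filter, 16 with all 24 libraries, and 2 to 14 with 1 left out. At 24 h 335 became 95 with all 24 libraries and 257 to 459 with 1 left out. The line-by-time interaction went from 111 to 11 and to 53 to 172. The replicate block moved no other count by over 1.5 times. For single named genes, 376 alternatives kept the call and 27 lost it, with no change of sign. With 1 library left out, 382 kept it and 110 lost it. The causes were not tested.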
